A study of Arabidopsis thaliana with 11 samples.

Results

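Gene expression in arf2 seedlings was compared with that in Col seedlings, both raised on brassinazole (BRZ), an inhibitor of brassinosteroid synthesis. The comparison takes 5 of the 11 Affymetrix ATH1 arrays of the series, chosen by their titles: arf2 arrays 1 and 2 and Col arrays 1, 2 and 3 on BRZ. Col is the wild type, and arf2 is mutated in the gene for AUXIN RESPONSE FACTOR2 (ARF2); the labels do not name the allele. All seedlings were 4 days old and had grown in the dark, and the medium of these 5 samples held 0.5 µM BRZ. The replicates are described as independent biological samples, and the submitters had removed a further arf2 array on BRZ after quality control. The other 6 arrays, 3 of Col and 3 of arf2 on mock medium, served to estimate the variance and to set the genotype difference on BRZ beside that on mock.

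Auxin response factors are transcription factors that bind auxin response elements in promoters, and Aux/IAA proteins hold many of them inactive until auxin triggers their degradation. ARF2 is known mainly as a repressor of transcription. The mutants are known for large organs and delayed ageing, and in dark-grown seedlings ARF2 is known to act in the bending of the apical hook. Brassinosteroids promote elongation in darkness, and seedlings that lack them, or that grow on BRZ, stay short and lose part of their dark-grown form.

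The values are gcRMA intensities of probe sets, and differences are given on the log2 scale as arf2 minus Col, with the standard error (SE) of the model. A probe set was called when its adjusted p, from limma after Benjamini-Hochberg correction over 21886 tested probe sets, was under 0.05. Probe sets differ in how brightly they report, so no level is set against that of another gene. No probe set is named for ARF2 in the supplied annotation, so its own level was not analysed here and the genotype labels were not checked on it.

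The 5 arrays had closely matching distributions, with medians between 6.20 and 6.28 (log2). Replicates correlated with r between 0.996 and 0.997 across probe sets, and the SD of the log2 difference was 0.195 between both arf2 arrays and 0.162 to 0.192 between pairs of Col arrays. Signal from 25S ribosomal RNA, reported by a control probe set, was 97.2, 85.3 and 131 on the Col arrays and 33.6 and 63.9 on the arf2 arrays, lower on both arf2 arrays than on any Col array. That difference was -1.15 (log2), with an exact two-sided permutation p of 0.1, the smallest that 2 against 3 arrays can give. Few markers of single cell types were measured, and none of these was called. Seedlings are mixtures of cell types, so fewer cells of a type and less RNA per cell cannot be told apart in any value below.

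On BRZ, arf2 differed from Col at 135 of the 21886 probe sets tested (0.617%), 65 higher in arf2 (0.297%) and 70 lower (0.32%). Of these, 24 were at least 2-fold higher and 30 at least 2-fold lower. The median difference over all tested probe sets was 0.01, with quartiles of -0.10 and 0.11, so that the great majority of transcripts lay close to equality. At an unadjusted p under 0.05 there were 2111 probe sets. At each of the 135 the arrays of both groups lay apart without overlap, which held for 7265 (33.2%) of all probe sets tested. With the arrays set to equal medians, 155 probe sets were called, of which 54 were higher, 34.8% in place of 48.1%. The count rested on few arrays: it was 49 without arf2 array 1 on BRZ, 70 without arf2 array 2, and 68, 72 and 62 without Col arrays 1, 2 and 3 on BRZ. Leaving out Col mock array 2, which adds only to the variance here, raised it to 257.

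**Figure D1:**
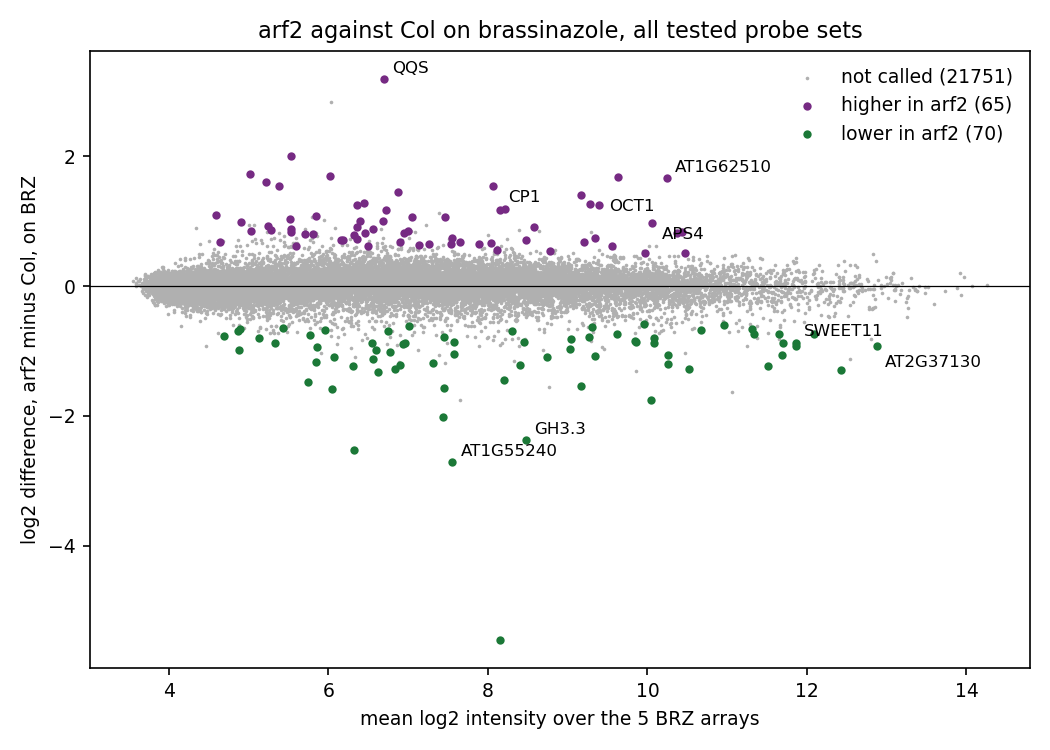
Each point is 1 of the 21886 tested probe sets, with the mean log2 intensity over the 5 BRZ arrays on the x axis and the log2 difference, arf2 minus Col on BRZ, on the y axis; purple points are the 65 called higher, green points the 70 called lower, and grey points were not called. QQS, at 3.19, is the largest rise of a named gene, and AT1G55240, at -2.71, the largest fall of one.

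The annotation names exactly 1 gene for 57 of the called probe sets, 32 higher and 25 lower, and these are the genes described here. That is 0.443% of the 12853 tested probe sets that name 1 gene, and the higher ones are 0.249%. Their differences ran from 0.63 to 3.19 among the higher genes and from -0.60 to -2.71 among the lower ones, and 25 genes differed at least 2-fold, 14 higher and 11 lower. A further 75 called probe sets carry no gene name and 3 carry several. The 43 unnamed probe sets that were lower reached a fall of 5.45 on the log2 scale, and the 32 unnamed ones that were higher reached 2.01.

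**Figure D2:**
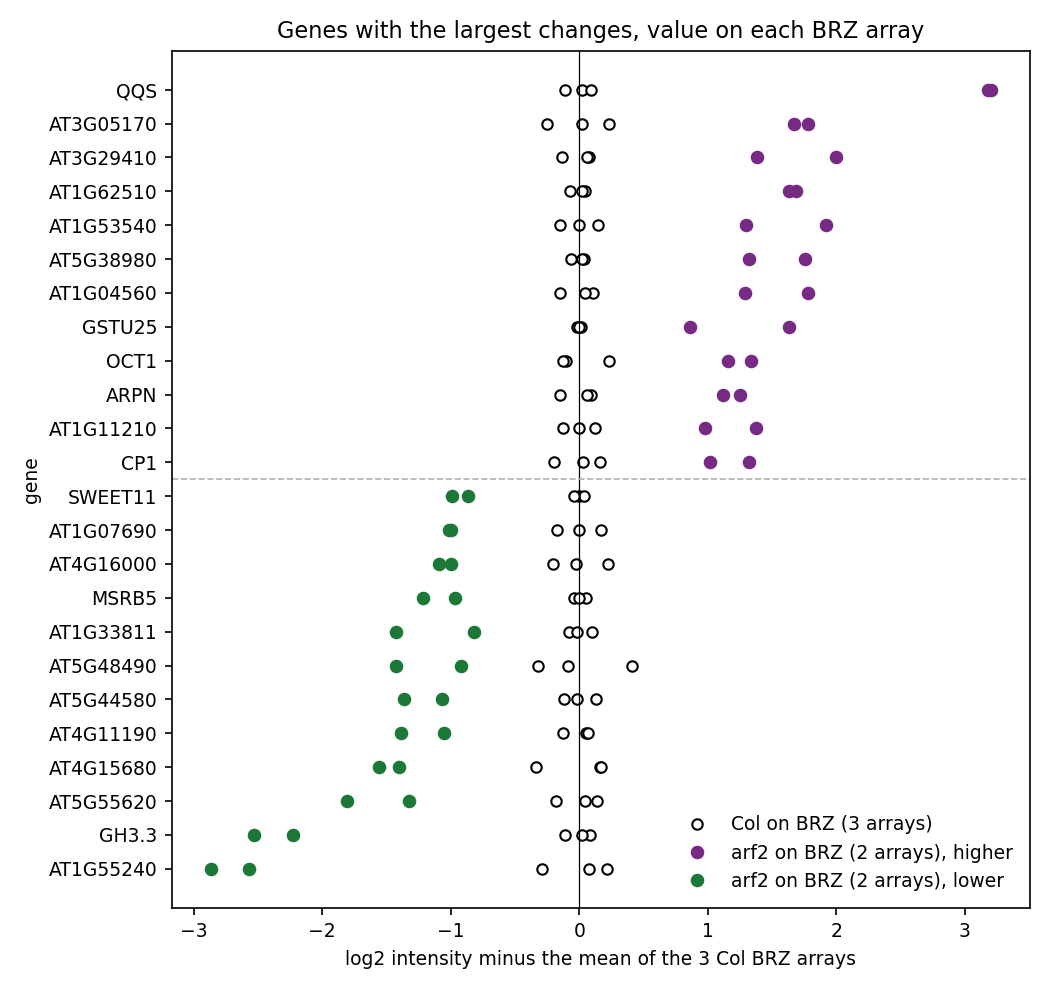
The x axis gives the log2 intensity on each of the 5 BRZ arrays minus the mean of the Col arrays on BRZ, for the 12 named genes raised most in arf2 and the 12 lowered most. Open circles are the 3 Col arrays and filled circles the 2 arf2 arrays, which lie on 1 side of all Col arrays for each of the 24 genes.

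Among the measured GH3, Aux/IAA and YUC genes of auxin biology, GH3.3 was the only one called. GH3.3 encodes an enzyme that joins auxin to amino acids, which removes active auxin, and it belongs to the gene family best known for rapid induction by auxin. GH3.3 read 637, 729 and 695 on the Col arrays and 147 and 119 on the arf2 arrays. Every arf2 value lay far below every Col value, and the gene was 5.19-fold lower in arf2 (-2.38 ± 0.11 SE, adjusted p = 1.09e-06). Of the 5 GH3 genes measured, the other 4 were not called. GH3.1, at 20.8, 24.9 and 21.6 in Col and 18.7 and 16.4 in arf2, differed by -0.35 (adjusted p = 0.603). GH3.17 differed by 0.04 and WES1, which is GH3.5, by 0.01, and their groups overlapped. The median of the 5 genes was 0.01, as over all probe sets.

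None of the 6 measured Aux/IAA repressor genes was called, and their differences ran from -0.13 for IAA20 to 0.24 for IAA29. The 4 measured YUC genes, whose enzymes catalyse the last step of auxin synthesis, differed by -0.18 to 0.16 and were not called either. HAT2, a homeobox gene known for induction by auxin, read 996, 1187 and 1149 in Col and 871 and 692 in arf2. Its groups did not overlap, but its difference of -0.51 did not pass the test (adjusted p = 0.18). Cytokinin response regulators, which mediate or damp the cytokinin signal, gave 6 measured genes between -0.16 and -0.02, with none called. Of brassinosteroid signalling only BRL1, a receptor, and BIM1, a partner of the BES1 transcription factor, were measured, at 0.10 and 0.30 and not called. No probe set is named for single SAUR or ARF genes or for genes of brassinosteroid synthesis, so these were not analysed here.

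The largest rise of a named gene was that of QQS, a gene found only in Arabidopsis thaliana whose small protein acts on the division of carbon and nitrogen between starch and protein. It read 39.6, 43.5 and 45.6 on the Col arrays and 394 and 388 on the arf2 arrays. The arf2 arrays stood close together and 9.13-fold above Col (3.19 ± 0.13 SE, adjusted p = 2.35e-07). SWEET11, a sucrose exporter that loads sugar toward the phloem, went the other way. It read 4791, 4939.6 and 4677 in Col and 2638 and 2415 in arf2, and was 1.9-fold lower there (-0.93 ± 0.09 SE, adjusted p = 0.000616).

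Among 21 measured genes of sugar transport and starch metabolism, these were the only 2 called, where 0.443% of all single-gene probe sets were. Of the 21 differences 16 were negative (median -0.13), against 48.7% of all tested probe sets. The groups did not overlap for SWEET1 or SWEET3, sugar transporters of the same family. SWEET1 read 257, 291 and 243 in Col and 159.7 and 149 in arf2, a difference of -0.77 that did not pass the test (adjusted p = 0.517). SWEET3 differed by -0.63 (adjusted p = 0.14). The fit on the 5 BRZ arrays alone, which called 2.07% of all probe sets, gave adjusted p = 0.0117 for SWEET1 and 0.039 for SWEET3. APL3, a subunit of the enzyme that makes the ADP-glucose for starch, was at 0.41 and not called.

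Genes that act on the cell wall were called in both directions, but few in each family. Expansins loosen walls during growth, and of 19 measured genes only EXPA16 was called. EXPA16 read 64.9, 68.1 and 69.1 in Col and 33.4 and 47.8 in arf2 (-0.75 ± 0.15 SE, adjusted p = 0.0456); both arf2 arrays were below Col, but the call was lost without arf2 array 1 (adjusted p = 0.463) and without Col array 1, 2 or 3 (0.14, 0.145 and 0.185). The other expansins ran from -0.43 for EXPA4 (adjusted p = 0.106) to 0.40 for EXPA8 (adjusted p = 0.134), and the median of the 19 was -0.07.

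Xyloglucan endotransglucosylases cut and rejoin the xyloglucan chains that tether cellulose. Of 10 measured, 8 differences were negative (median -0.21) and XTH33 was called. XTH33 read 192, 234 and 229 in Col and 141 and 114 in arf2 (-0.78 ± 0.13 SE, adjusted p = 0.0161), and its call was lost without arf2 array 2 (adjusted p = 0.163) and without Col array 2 or 3 (0.0765 and 0.0938). XTH16 had a difference of -0.84 but a wider spread among the Col arrays, at 865, 592 and 962 against 392 and 496 in arf2, and was not called (adjusted p = 0.146). XTH18 differed by -0.46 (adjusted p = 0.285).

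Pectin methylesterases remove methyl groups from wall pectin. Of 4 genes of this class listed by symbol, PMEPCRF was lower and PME61 was higher in arf2. That list leaves out AT5G51500, a gene of the same class that was called higher and is given below. PMEPCRF read 166, 154 and 149.9 in Col and 86 and 83.2 in arf2 (-0.89 ± 0.14 SE, adjusted p = 0.0146). PME61 read 67.6, 68.3 and 75.4 in Col and 121 and 126 in arf2 (0.82 ± 0.11 SE, adjusted p = 0.00501). Leaving out either arf2 array on BRZ took the adjusted p of PMEPCRF to 0.142 or 0.13 and that of PME61 to 0.0665 or 0.07. The call of PMEPCRF was also lost without Col array 1, 2 or 3 (0.0747, 0.059 and 0.0591).

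None of 23 cellulose synthase-like and GH9 endoglucanase genes was called (median -0.05), the lowest being GH9B12 at -0.62 (adjusted p = 0.204). None of the 7 class III peroxidases listed by symbol was called either. That list leaves out the peroxidases AT5G15180 and AT2G37130, both called lower. The values of AT2G37130, whose call held in every alternative fit, are given below. AT5G15180 read 146, 177 and 153 in Col and 93.4 and 79.6 in arf2 (-0.88 ± 0.14 SE, adjusted p = 0.0146). Its call was lost without either arf2 array or Col arrays 2 or 3. Tubulins, the subunits of the microtubules that guide cellulose deposition, had a median of 0.15 over 7 genes with 6 positive, against 51.3% positive over all tested probe sets. None was called, with TUA1 at 0.43 (adjusted p = 0.235) and TUB6 at 0.32 (adjusted p = 0.347).

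Genes for transport and for primary metabolism included OCT1 and APS4, both higher in arf2. OCT1 encodes a transporter of organic cations such as carnitine, and APS4 an ATP sulfurylase, which activates sulfate for its assimilation. OCT1 read 444, 558 and 435 in Col and 1200.1 and 1059 in arf2, which was 2.37-fold higher (1.24 ± 0.13 SE, adjusted p = 0.000826). APS4 read 786, 778 and 869 in Col and 1746 and 1458 in arf2 (0.98 ± 0.11 SE, adjusted p = 0.00148). For both genes each arf2 array was well above all Col arrays, and the call held in every alternative fit. PDC2, a pyruvate decarboxylase of ethanol fermentation, read 131, 153 and 176 in Col and 264 and 246 in arf2 (0.74 ± 0.14 SE, adjusted p = 0.0432). Its call was lost without either arf2 array or Col arrays 1 or 2, with adjusted p of 0.384, 0.163, 0.155 and 0.134. Of 12 nitrate and iron transport genes none was called, the highest being AT1G68570 at 0.75 (adjusted p = 0.0584).

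In redox and stress metabolism, MSRB5 was lower and GSTU25 higher. MSRB5 encodes a methionine sulfoxide reductase, which repairs oxidised methionine, and read 597, 560.1 and 575 in Col and 295 and 249 in arf2. It was 2.13-fold lower in arf2 (-1.09 ± 0.12 SE, adjusted p = 0.00148), a call that held in every alternative fit. GSTU25, a tau-class glutathione transferase, read 57.3, 58.3 and 57.9 in Col, values almost alike, and 105 and 179.6 in arf2. The arf2 arrays were both higher but far apart (1.25 ± 0.21 SE, adjusted p = 0.0197). The adjusted p of GSTU25 was 0.155 without arf2 array 2 and 0.0897, 0.0814 and 0.0972 without Col arrays 1, 2 and 3. The other 12 glutathione transferases measured were not called and ran from -0.64 for GSTF4 (adjusted p = 0.239) to 0.45 for GSTU16 (adjusted p = 0.436).

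AT4G15680, a glutaredoxin, read 91, 64.4 and 91.1 in Col and 27.5 and 30.7 in arf2, where it was 2.79-fold lower (-1.48 ± 0.21 SE, adjusted p = 0.00684). Leaving out either arf2 array took its adjusted p to 0.12 or 0.057. ROXY2, another member of the family, was at 70.5, 68.2 and 61.9 in Col and 43.6 and 45.8 in arf2. Its groups did not overlap either, but it missed the threshold (-0.58, adjusted p = 0.0742). The 5 glutaredoxins listed by symbol, which leave AT4G15680 out, had a median of -0.02 and none called. Being matched by name, that list can leave out further members. Outside it, the neighbouring loci AT4G15660, AT4G15690 and AT4G15700 differed by -0.72, -0.89 and -0.72 and were not called. AT4G15650 and AT4G15710, on either side of these, were at 0.10 and 0.002. The small heat shock protein gene AT1G53540 read 23.7, 21.4 and 26.3 in Col and 58.3 and 89.9 in arf2, which was 3.05-fold higher (1.61 ± 0.17 SE, adjusted p = 0.00114). Pathogenesis-related, WRKY and camalexin genes gave 12 measured members, none called, with a median of 0.04.

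In secondary metabolism, UGT72E2, which adds glucose to lignin precursors, was the only one of 51 measured UDP-glycosyltransferases that was called (0.63 ± 0.12 SE, adjusted p = 0.0401). It read 132, 109.9 and 113 in Col and 203 and 165 in arf2, and the call was lost without either arf2 array (adjusted p = 0.454 and 0.0551) and without Col array 2 or 3 (0.142 and 0.183). UGT73B5 was close at 0.58 (adjusted p = 0.0845), and the median of the 51 was 0.02. BGLU25, a beta-glucosidase, read 168, 173 and 158 in Col and 261 and 273 in arf2 (0.68 ± 0.11 SE, adjusted p = 0.0184), with the call lost when any of the 5 BRZ arrays was left out. The dirigent-like gene AT4G11190, of a family that steers the coupling of phenolic radicals, read 492, 435 and 498 in Col and 229 and 181 in arf2, 2.33-fold lower (-1.22 ± 0.13 SE, adjusted p = 0.0012). None of 9 phenylpropanoid and flavonoid genes was called (median -0.14), and none of 23 cytochromes P450 (median 0.01).

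Several further genes were called with large differences. AT1G62510, a lipid transfer protein gene, read 789, 729 and 777 in Col and 2463 and 2366 in arf2, so that both arf2 arrays were more than 2-fold above every Col array (1.66 ± 0.13 SE, adjusted p = 0.000116). ARPN, the blue copper protein plantacyanin, read 228, 223 and 193 in Col and 463 and 508 in arf2 (1.18 ± 0.17 SE, adjusted p = 0.00684). CP1, a cysteine protease, read 179, 230.3 and 209.9 in Col and 417 and 514 in arf2 (1.17 ± 0.15 SE, adjusted p = 0.00451). The arf2 arrays were above all Col arrays for both ARPN and CP1. Leaving out 1 arf2 array took the adjusted p to 0.0732 or 0.0957 for ARPN, and to 0.07 for CP1 without array 2.

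The remaining genes among the 12 largest rises are known here by locus only. AT5G38980 read 179.7, 178 and 167 in Col and 591 and 436 in arf2 (1.54 ± 0.16 SE, adjusted p = 0.000943). AT3G29410 read 42.8, 37 and 42.4 in Col and 163 and 106 in arf2 (1.69 ± 0.17 SE, adjusted p = 0.000789). In AT3G29410, Col array 1 on BRZ and all 3 arf2 mock arrays carry the identical value of 42.784. AT3G05170 read 16.9, 23.6 and 20.4 in Col and 64.1 and 68.9 in arf2 (1.72 ± 0.16 SE, adjusted p = 0.000334). The mean of its Col arrays on BRZ, though not each array, was below the mean lower quartile of the BRZ arrays. AT1G04560 read 24.5, 29.3 and 28 in Col and 93.5 and 66.4 in arf2 (1.54 ± 0.19 SE, adjusted p = 0.00293). AT1G11210 read 75.9, 69.6 and 82.7 in Col and 197 and 149.5 in arf2 (1.18 ± 0.17 SE, adjusted p = 0.00684). In each of these 5 loci the arf2 arrays lay above all Col arrays. Without arf2 array 1, AT1G04560 and AT1G11210 lost their calls (adjusted p = 0.0621 and 0.131).

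The strongest fall of a named gene was that of AT1G55240, which read 325, 462 and 420.0 in Col and 67.2 and 54.7 in arf2, 6.57-fold lower (-2.71 ± 0.19 SE, adjusted p = 5.74e-05). AT5G55620 read 277, 237 and 295 in Col and 77 and 107 in arf2 (-1.56 ± 0.23 SE, adjusted p = 0.00926). AT5G44580 read 165, 154 and 184 in Col and 65.2 and 80.1 in arf2 (-1.21 ± 0.17 SE, adjusted p = 0.00684). These 3 loci had no overlap between the groups, and the calls of AT5G55620 and AT5G44580 were lost without arf2 array 1 (adjusted p = 0.157 and 0.14); that of AT5G55620 was also lost without Col array 1 or 3 (0.054 and 0.0581).

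AT5G48490 read 63.9, 106 and 75.2 in Col and 29.7 and 42.1 in arf2 (-1.17 ± 0.20 SE, adjusted p = 0.0203). AT1G33811 read 122, 127 and 138 in Col and 48 and 72.8 in arf2 (-1.12 ± 0.21 SE, adjusted p = 0.038). AT4G16000 read 250.2, 297 and 221 in Col and 119 and 127 in arf2 (-1.04 ± 0.13 SE, adjusted p = 0.00254). AT1G07690 read 144, 162 and 128 in Col and 72 and 71.2 in arf2 (-1.01 ± 0.16 SE, adjusted p = 0.0138). For AT5G48490 and AT1G33811 the 2 arf2 arrays differed more from each other than for AT4G16000 and AT1G07690, and without arf2 array 1 the adjusted p of the former pair was 0.298 and 0.429. Without that array AT4G16000 stood at 0.0542 and AT1G07690 at 0.147; AT1G07690 also lost its call without arf2 array 2 or Col arrays 1 or 2, AT1G33811 without any of the 3 Col arrays, and AT5G48490 without Col array 2 or 3. AT2G37130 read 9863, 10182 and 9167 in Col and 5376 and 4888 in arf2 (-0.92 ± 0.10 SE, adjusted p = 0.00133), a call that held in every alternative fit.

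Transcripts encoded by the chloroplast gave mostly negative differences, without any call. Of 69 measured, 67 differences were negative, the median was -0.48, and 33 were under an unadjusted p of 0.05. Over all tested probe sets 48.7% of differences were negative and 9.65% were under that p. psaA, a reaction-centre protein of photosystem I, came nearest to the threshold, at 3009, 2825 and 3672 in Col and 1324 and 2064 in arf2 (-0.93, adjusted p = 0.0931). psbA, which encodes the D1 protein of photosystem II, read 945, 986 and 2554 in Col and 381 and 770.2 in arf2, so that its Col arrays spread widely (-1.30, adjusted p = 0.378). rbcL, the large subunit of Rubisco, was at 0.10.

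The chloroplast list moved most on arf2 array 1, where its median deviation from the Col mean was -0.74 with all 69 transcripts below it. On arf2 array 2 the median deviation was -0.26, with 52 below. The 3 Col arrays themselves deviated by -0.07, -0.13 and 0.22. Among the BRZ arrays, the 25S ribosomal RNA value was also lowest on arf2 array 1 (33.6) and highest on Col array 3 (131). The part of RNA composition in the chloroplast values was not tested. In the fit on the 5 BRZ arrays alone, 10 of the 69 were called, against 433 of all 20949 probe sets tested there (2.07%).

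Nuclear genes for the photosystems gave 7 measured members, with 6 negative differences, a median of -0.15 and none called. PSAE-1, a subunit of photosystem I, read 2934, 3345 and 3158 in Col and 1649.6 and 2536 in arf2 (-0.62, adjusted p = 0.176). Of 6 chlorophyll synthesis genes, PORB, the light-dependent protochlorophyllide oxidoreductase, read 4406, 3231 and 3939 in Col and 2060.3 and 3129 in arf2 (-0.59, adjusted p = 0.204). In both PSAE-1 and PORB arf2 array 1 was the lowest. HYH, a bZIP factor of light signalling, was at -0.65 (adjusted p = 0.242). The summed level of PRK and RCA, markers of green tissue, was 3309 on arf2 array 1 and 4331 to 4690.0 on the other 4 arrays.

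**Figure D3:**
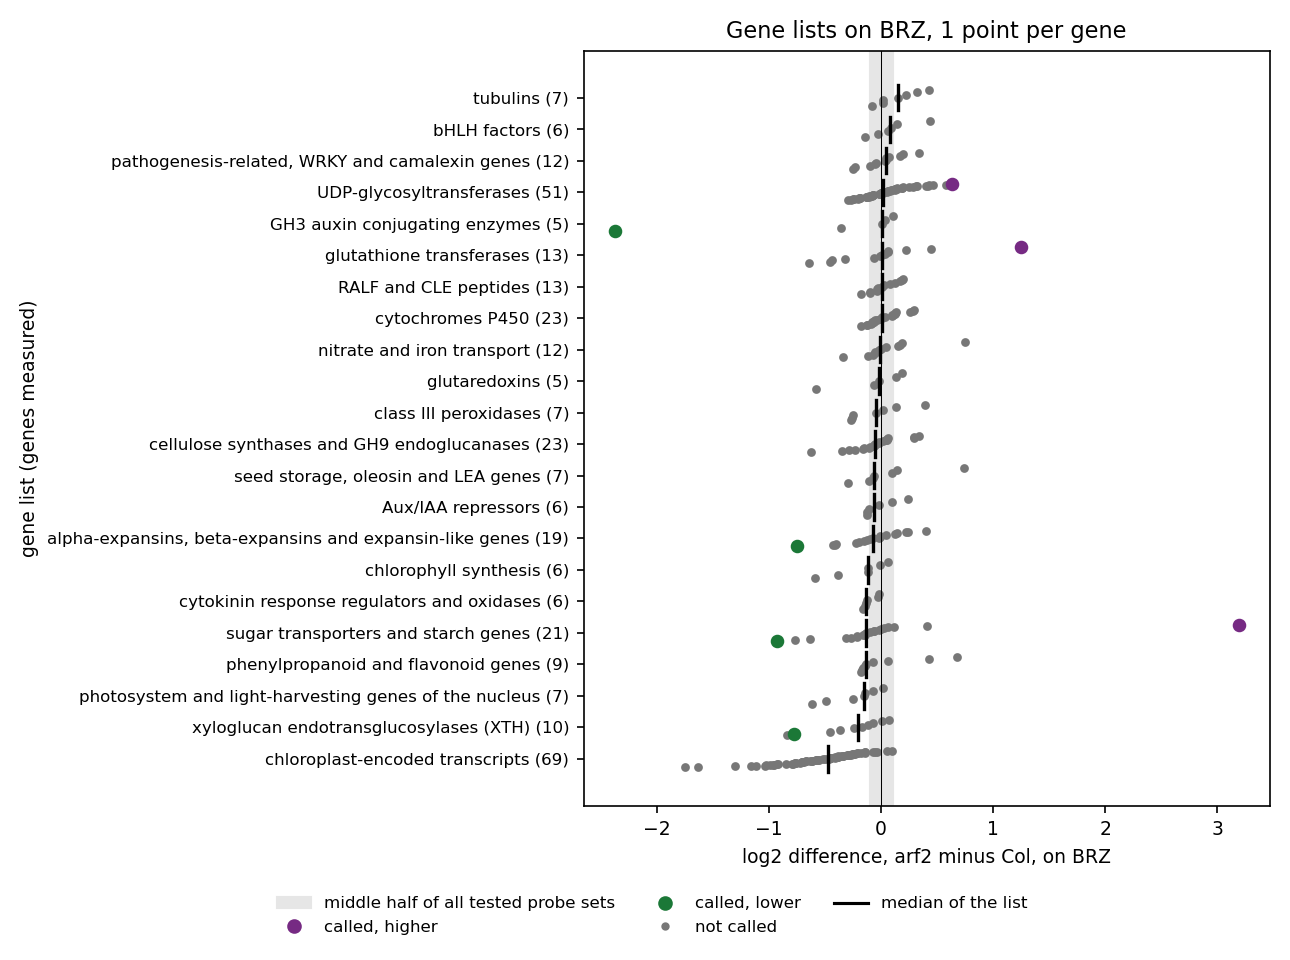
Each point is 1 measured gene of the list named on the y axis, with the number measured in brackets, and the x axis is the log2 difference, arf2 minus Col on BRZ. Large coloured points were called, black bars are list medians and the grey band spans the quartiles of all tested probe sets (-0.10 to 0.11); the chloroplast transcripts sit lowest with a median of -0.48 and no call.

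On mock medium the same model called 1609 probe sets between arf2 and Col (7.35%). The mock arrays matched less closely than those on BRZ. Their medians (log2) were 5.96, 5.93 and 6.20 in Col and 6.22, 6.22 and 6.09 in arf2. The 25S ribosomal RNA signal on mock was 95.9, 59.7 and 77.3 in Col and 263, 193 and 173 in arf2. It was thus higher in arf2 on mock and lower in arf2 on BRZ. The ratio of the 3' to the 5' actin control probe set was 23.6 on Col mock array 2 and from 11.6 to 15.95 on the other arrays. The part of RNA composition in the mock values, or in their contrast with BRZ, was not tested. Mock also had 3 arf2 arrays where BRZ had 2, so the counts on both media cannot be compared directly. How far the uneven medians add to the 1609 calls was not tested. Of the 57 named genes called on BRZ, 32 were also called on mock in the same direction, 2 in the opposite direction and 23 were not called there. QQS was higher on mock too, at 48, 41.2 and 39.4 in Col and 255, 317 and 260.0 in arf2 (2.69 ± 0.11 SE). Likewise AT1G55240 was lower on mock (-3.52 ± 0.17 SE), as was MSRB5 (-1.15 ± 0.11 SE), and AT1G62510 was higher (1.44 ± 0.12 SE). For these 4 genes the interaction, which is the genotype difference on BRZ minus that on mock, did not pass the test (adjusted p = 0.318, 0.267, 0.948 and 0.786).

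**Figure D4:**
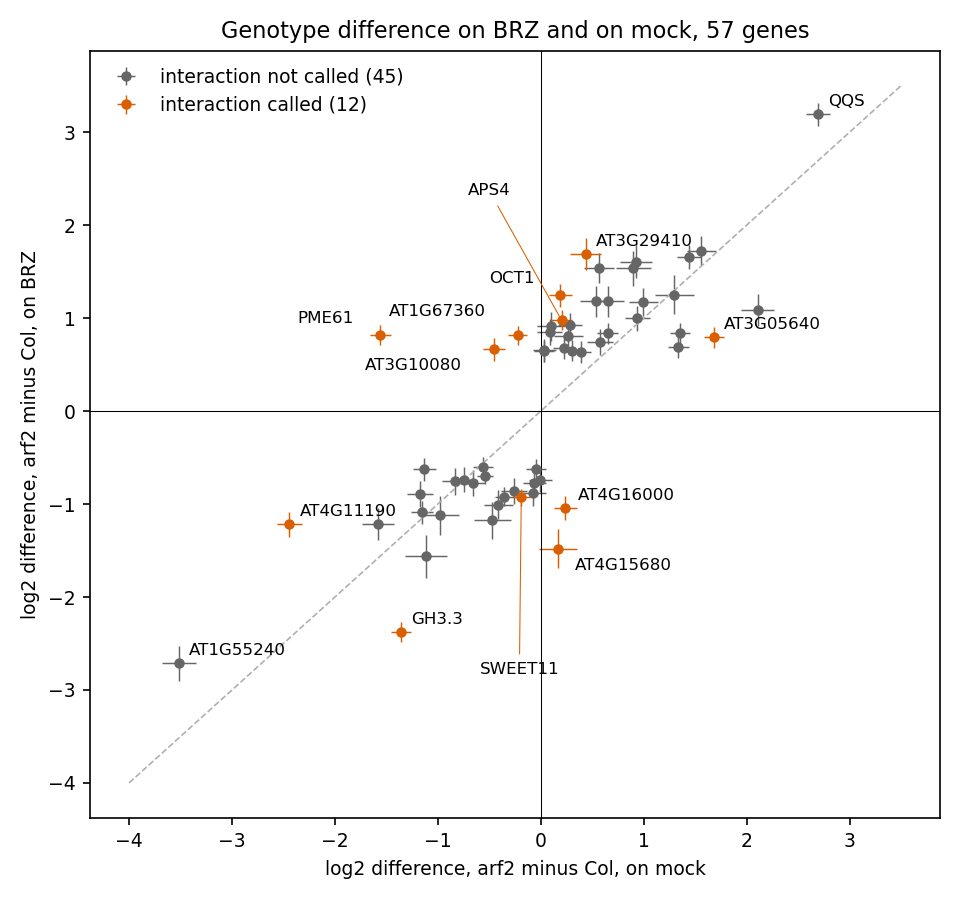
The log2 difference of arf2 from Col on mock (x axis) is set against that on BRZ (y axis) for the 57 named genes, with bars of 1 SE; the dashed line marks equal differences. The 12 orange genes passed the interaction test, among them PME61, which lies on opposite sides of 0 on mock (-1.56) and BRZ (0.82).

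The interaction was called at 184 of 21886 probe sets (0.841%), at 22 of the 135 and at 12 of the 57 named genes. The 135 and the 57 were chosen on the BRZ difference that the interaction contains, so their shares cannot be set against 0.841%. Among the 22, the count went to 5 without arf2 array 1 on BRZ, to 12 without Col array 1 and 14 without Col array 3 on BRZ, to 14 without arf2 mock array 1, and to 36 without Col mock array 2. The same count was 20 with the arrays set to equal medians and 34 with quantile normalization. GH3.3 was lower in arf2 on both media but more so on BRZ. On mock it read 365, 352 and 365 in Col and 148, 134 and 140.0 in arf2, a difference of -1.36, and the interaction was -1.02 ± 0.15 SE (adjusted p = 0.00893). In Col it was 0.93 higher on BRZ than on mock (adjusted p = 0.000216), and in arf2 the same change was -0.09 (adjusted p = 0.756).

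SWEET11, AT4G15680 and AT4G16000 were lower in arf2 on BRZ and were not called between genotypes on mock. SWEET11 read 3236, 3176 and 3292 in Col and 2970.4, 2755 and 2786 in arf2 on mock (-0.19, adjusted p = 0.206; interaction -0.74 ± 0.12 SE, adjusted p = 0.015). In Col it was 0.57 higher on BRZ than on mock, and in arf2 the change was -0.17 (adjusted p = 0.39). AT4G15680 read 19.5, 24.9 and 31.4 in Col and 32.5, 27.4 and 24.2 in arf2 on mock, so those groups overlapped, and its BRZ change was 1.71 in Col and 0.06 in arf2 (interaction -1.65 ± 0.28 SE, adjusted p = 0.0184). AT4G16000 changed little on BRZ in Col (-0.17, adjusted p = 0.353) and by -1.45 in arf2 (interaction -1.28 ± 0.17 SE, adjusted p = 0.0047). On mock its genotype difference was 0.24, opposite in sign to that on BRZ (adjusted p = 0.268).

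OCT1, APS4, AT1G67360 and AT3G29410 were higher in arf2 on BRZ and were not called between genotypes on mock. The limma difference of AT1G67360 on mock was -0.22, opposite in sign to that on BRZ (adjusted p = 0.187). OCT1 read 976, 939 and 864 in Col and 1012, 1024 and 1129 in arf2 on mock. From mock to BRZ it changed by -0.96 in Col (adjusted p = 0.000373) and by 0.10 in arf2 (adjusted p = 0.763). The interaction was 1.06 ± 0.17 SE (adjusted p = 0.014). APS4 had the same arrangement, at 1646, 1595 and 1463 in Col and 1726, 1899.8 and 1779 in arf2 on mock, a BRZ change of -0.95 in Col and -0.17 in arf2, and an interaction of 0.78 ± 0.15 SE (adjusted p = 0.0337). For AT1G67360 the BRZ change was -1.49 in Col and -0.44 in arf2 (interaction 1.04 ± 0.14 SE, adjusted p = 0.0047); its call on BRZ was lost without arf2 array 1 (adjusted p = 0.0677). AT3G29410 instead was 1.62 higher on BRZ in arf2, with a change of 0.36 in Col (interaction 1.25 ± 0.23 SE, adjusted p = 0.0252).

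PME61 and AT3G10080 turned around between the media. On mock, PME61 read 202, 234 and 217 in Col and 78.3, 66.5 and 77.4 in arf2, the reverse order of that on BRZ (-1.56 ± 0.10 SE, adjusted p = 3.68e-06). Its interaction, 2.37 ± 0.15 SE, had an adjusted p of 3.56e-05. From mock to BRZ it changed by -1.63 in Col and by 0.75 in arf2. AT3G10080 differed by -0.45 on mock and by 0.66 on BRZ (interaction 1.12 ± 0.17 SE, adjusted p = 0.00903), though its call on BRZ was lost when any of the 5 BRZ arrays was left out. AT4G11190 and AT3G05640 kept their direction with a smaller difference on BRZ. AT4G11190 read 1658, 1829.8 and 1625 in Col and 344, 324 and 276 in arf2 on mock (-2.44 ± 0.12 SE; interaction 1.22 ± 0.18 SE, adjusted p = 0.00854). AT3G05640 differed by 1.68 on mock and 0.79 on BRZ (interaction -0.89 ± 0.15 SE, adjusted p = 0.0181), and its call on BRZ was lost without arf2 array 1 or 2 (adjusted p = 0.108 and 0.0656).

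**Figure D5:**
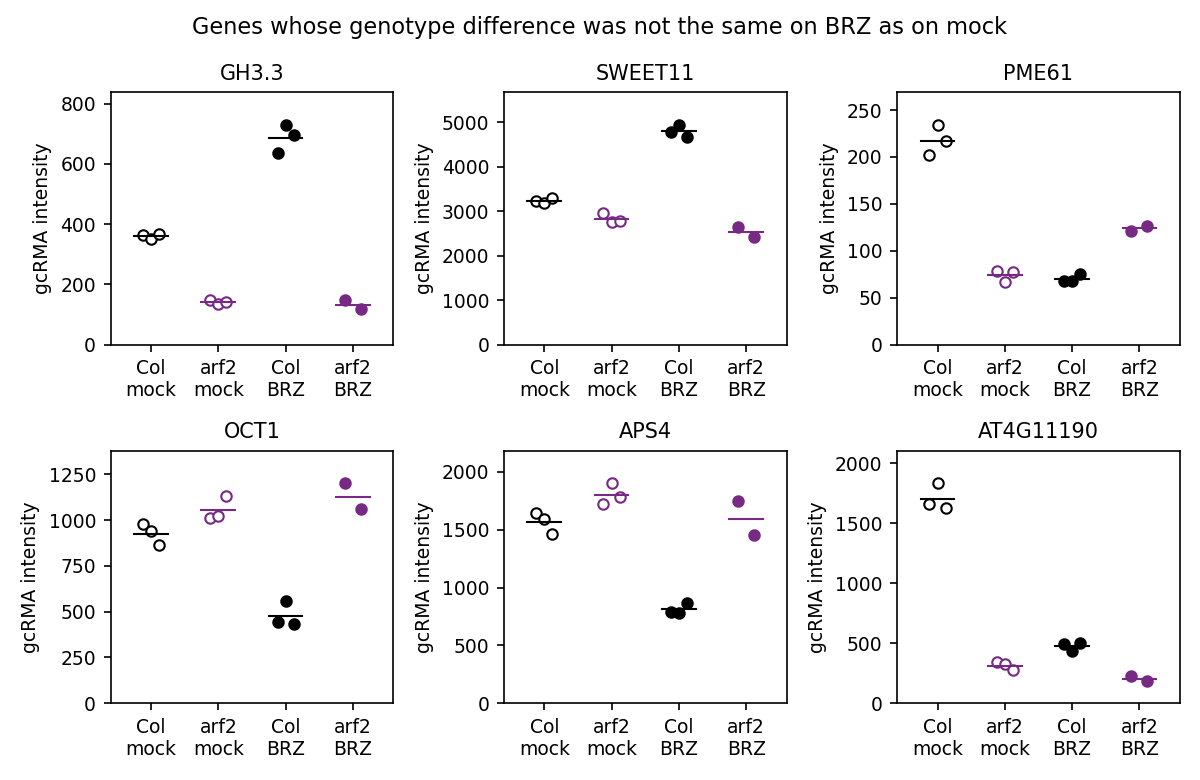
Each panel gives the gcRMA intensity of 1 gene on a linear y axis from 0, with a circle per array and a bar at the mean, for Col and arf2 on mock (open circles) and on BRZ (filled circles). GH3.3 and SWEET11 are highest on the 3 Col BRZ arrays, OCT1 and APS4 are lowest there, and PME61 and AT4G11190 are highest in Col on mock.

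Some list genes differed between genotypes on mock but were not called on BRZ, with a called interaction. AT3G13610, an oxygenase of coumarin synthesis, read 47.2, 45.8 and 52.1 in Col and 604, 278 and 735 in arf2 on mock. On BRZ it read 74.7, 74 and 95.7 in Col and 79.8 and 74.4 in arf2, overlapping groups, and the interaction was -3.44 (adjusted p = 0.00307). CCOAMT, a methyltransferase of phenylpropanoid metabolism, differed by 2.80 on mock and by 0.68 on BRZ (adjusted p = 0.248), with an interaction of -2.13 (adjusted p = 0.0047). EXPA4 differed by -1.22 on mock and by -0.43 on BRZ (interaction 0.80, adjusted p = 0.0181). PDF1.4, a plant defensin, differed by 1.75 on mock and -0.05 on BRZ (interaction -1.80, adjusted p = 0.0182).

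Of the 57 named genes, 20 have not yet been given with their differences, 12 higher and 8 lower in arf2. The higher ones were AT3G05950 at 1.09, AT5G35735 just past the 2-fold mark, AT5G51500 and AT3G13980 at 0.93 and 0.91, AT5G60520, AT2G23110, AT2G43590 and AT5G47800 between 0.80 and 0.85, and AT5G10120, AT3G20370, AT2G46060 and AT3G03170 between 0.64 and 0.68. AT3G20370 carried the identical value of 243.475 on both arf2 arrays on BRZ, so its spread between them was 0. The lower ones were AT5G02540 at -0.86, AT2G29620, AT4G37220 and AT4G11610 between -0.77 and -0.74, and AT1G22885, AT4G29270, AT1G25530 and AT5G14120 between -0.70 and -0.60. The group means of AT5G10120 in Col and of AT2G29620 in arf2 were below the mean lower quartile of the BRZ arrays. All 20 lost the call when at least 1 of the 2 arf2 arrays on BRZ was left out, the higher of both adjusted p lying between 0.07 for AT5G35735 and 0.521 for AT5G47800. Of the 20, AT3G05950, AT5G35735, AT2G23110 and AT2G43590 were also called higher on mock, and AT5G14120, AT4G29270, AT1G22885, AT4G11610 and AT2G29620 were also called lower there.

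The calls of 14 of the 57 named genes held in all 25 alternative fits. These were the rises of QQS, AT3G05170, AT3G29410, AT1G62510, AT1G53540, AT5G38980, OCT1 and APS4, and the falls of GH3.3, AT1G55240, AT4G11190, MSRB5, SWEET11 and AT2G37130.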

How the data were processed

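The authors deposited gcRMA intensity values per probe set on a linear scale, background-corrected and normalized between arrays, per the submitters' processing notes; the version is not given in the sources used here. Their log2 was taken first, and all deposited log2 values below rest on that step. Arrays give no counts, so their number limits the precision. Of 22810 probe sets, 64 controls were left out, and 860 were dropped for lack of 2 arrays above 4 on the log2 scale.

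limma 3.58.1 (R 4.3.3) was fitted to all 11 arrays, each group with its own mean and 1 moderated variance per probe set, on two-sided tests. A separate fit used the 5 BRZ arrays alone. The steps were tested on simulated data. The supplied annotation names 1 gene for 13513 probe sets, several for 503 and none for 8730; 13436 of the 13513 names matched the supplied gene table of TAIR10.1 by gene ID. Named genes were all called probe sets that name exactly 1 gene, are above 4 (log2) throughout at least 1 of both groups and keep the groups apart, and the 12 largest rises and falls were given on every array. List members may be named whether called or not. Lists were matched by gene symbols, and 17 genes matched by name only were removed. Of 47 lists, 34 had a measured gene and 24 had at least 4. The members and lists were chosen with earlier results of these data known. No sequence tables were used here. Plots used matplotlib 3.10.9 and Python 3.11.15. Alternatives were other filters, normalizations, variance models and sets of arrays.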

Additional observations from a re-analysis of the deposited data

Results flagged for a closer look

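The genotype difference on BRZ was tested against that on mock with the interaction term of the limma model, and 20 of the genes followed here passed it. Values are differences on the log2 scale, arf2 minus Col on BRZ minus the same on mock. Of the genes called on BRZ, these were PME61 (2.37), AT3G29410 (1.25), AT4G11190 (1.22), AT3G10080 (1.12), OCT1 (1.06), AT1G67360 (1.04) and APS4 (0.78) above 0, and AT4G15680 (-1.65), AT4G16000 (-1.28), GH3.3 (-1.02), AT3G05640 (-0.89) and SWEET11 (-0.74) below 0.

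Of the list genes that were not called on BRZ, AT3G13610 (-3.44), CCOAMT (-2.13), PDF1.4 (-1.80), UGT84A3 (-1.29) and UGT73B1 (-0.99) were below 0. These 5 were higher in arf2 on mock, by 3.37, 2.80, 1.75, 1.38 and 1.18. AT2G41480, a class III peroxidase (1.06), EXPA4 (0.80) and OLEO3, an oil body protein (0.79), were above 0, and these 3 were lower in arf2 on mock, by -1.32, -1.22 and -0.86. Each group held 2 or 3 arrays, so no test for outlying arrays was run. Fits with array weights, in which Col mock array 2 had the lowest weight (0.25), and fits without chosen mock arrays are given below.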

How the results depend on the processing

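The count of 135 probe sets called on BRZ, and that of 22 called interactions among them, were taken anew in each setting and moved as follows. A filter at a log2 value of 6 gave 204 and 39, array weights 903 and 74, and leaving out Col mock 2 with arf2 mock 3 gave 342 and 43, or 688 and 51 with Col mock 1 left out too. Only the 5 arrays compared gave 433. Quantile normalization gave 34 interactions, and trend and robust variances gave 36. An adjusted p under 0.01 gave 57 and 13, and the 2-fold minimum gave 54. Leaving out 1 array at a time gave 49 to 257 calls and 5 to 36 interactions. The replicate number as a block gave 66 and 9. Deviations from group means correlated at -0.02 and -0.07 for the same replicate number and between -0.06 and 0.07 for other numbers. With 2 arf2 arrays these deviations mirror each other, so they cannot tell whether replicate numbers pair the arrays. All other settings kept the counts within 1.5 times. Over the 57 named genes no direction reversed. Of the gene and setting pairs in which the gene was tested, 1197 kept the call and 223 did not, most of them with an array left out. More genes lost the call without an arf2 array on BRZ than without any other array. The causes of these shifts were not tested. The number of arrays limits the precision.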

Other observations

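The called genes that are named alone lay on all 5 nuclear chromosomes. The share called was 0.393%, 0.339%, 0.498%, 0.433% and 0.553% of the tested single-gene probe sets on chromosomes 1 to 5, against 0.443% in all, and differences between chromosomes were not tested. Chromosome 3 had 11 higher and 2 lower, chromosome 4 had 1 higher and 7 lower, chromosome 1 had 7 and 6, chromosome 2 had 4 and 3, and chromosome 5 had 9 and 7. Of the 11 on chromosome 3, 5 lay between loci AT3G03000 and AT3G05990, an interval chosen after its values were seen: AT3G03170, BGLU25, AT3G05170, AT3G05640 and AT3G05950. Among 148 tested single-gene probe sets of this interval, 5 were called higher and 0 lower by limma, where 0.249% of all such probe sets were called higher. An interval picked for its calls has no test. BGLU25, AT3G05170, AT3G05640 and AT3G05950 were also higher in arf2 on mock, by 1.33, 1.56, 1.68 and 2.11. AT3G03170 differed by 0.03 there (adjusted p = 0.902).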
